A study of Mus musculus with 6 samples.

Results

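Ion channel genes were followed in mouse uterus at the time of receptivity, with and without uterine *Foxo1*. The members are genes of the expression table whose symbol belongs to the potassium (*Kcn*), voltage-gated calcium (*Cacna*, *Cacnb*, *Cacng*) and sodium (*Scn*) channels, the TRPC, TRPM and TRPV channels, the HCN and P2X channels or *Piezo*, and they number 167 of 23420 genes. RNA-seq was made from whole uteri of C57BL/6J females 8 weeks old at pseudopregnancy day (PPD) 4.5, after mating with vasectomized males. Controls were *Foxo1f/f*, and the knockouts were *PgrCre/+ Foxo1f/f*, written *Foxo1d/d*. Each genotype had 3 libraries, and each library held RNA pooled from 2 mice. Both groups carried the floxed *Foxo1* alleles, but only the knockouts carried Cre, which sits at the *Pgr* locus. Deletion is therefore limited to cells that have expressed PGR, which include epithelium, stroma and muscle, while other cells keep the gene.

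The values used here are the authors' mean raw counts of each genotype. Their totals, per library on average, were 26125014 in controls and 27257963 in knockouts. No value of a single library was used, so no SD, n or test stands beside a value below. Counts were scaled by the total, and a difference is given as a log2 ratio, knockout divided by control, with a pseudocount of 1 added to each mean. Pairs of values give the control first. Folds printed beside a gene are of the scaled means without the pseudocount. The 95% interval of a ratio, also without it, comes from the Wilson interval of the share of the summed counts and covers counting error only, not the spread between animals. A ratio is called past the threshold at 1.5-fold, if the genotypes' counts average 10 or more (the minimum).

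Potassium channels set the resting potential of myometrial and epithelial cells, and voltage-gated calcium and sodium channels carry the current that drives contraction. TRP and Piezo channels let cations in upon chemical, osmotic or mechanical stimuli, and the epithelial TRPV channels pass calcium from the lumen into the cell. Ion and fluid transport across the luminal epithelium changes when the uterus closes around the embryo.

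The targeted gene followed its label. *Foxo1* averaged 3941 counts in controls and 1456 in knockouts (log2 ratio -1.50) over the whole gene; the floxed exons were not counted apart. *Pgr*, at the Cre locus, had 5469 and 6551 (0.20). The tissue label was checked against markers. Smooth muscle markers summed to 7224 and 5829 CPM (counts after scaling each total to 1000000), led per length by *Acta2*, and stromal markers to 7075 and 7003, led by *Col1a1*. Epithelial markers, led per length by *Cldn3*, summed to 738 and 882 CPM. All 3 kinds of uterine tissue were thus present in both genotypes, with none of the 8 genes of each list at 0. In whole tissue, fewer cells of a type and less RNA per cell cannot be told apart.

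Of the 167 members, 7 had no count in either genotype (among them *Kcna10*, *Kcnk9* and *Scn10a*), 38 stayed under the minimum, and 122 reached it. Of these 122 genes, 10 (8.20%) were at least 1.5-fold higher in *Foxo1d/d*, where 5.45% of all 15702 genes at this count were, and 15 (12.3%) were at least 1.5-fold lower, where 3.51% of all genes were. Their median log2 ratio was -0.06, against 0.02 over all genes at this count. The other 97 lay within 1.5-fold. A ratio below 0 was found in 74 of the 122 members and in 7048 of all 15702 genes. The 5.45% and 3.51% of all genes apply to every class and list below that uses this minimum. *Kcne1* and *Kcnj3* reached the minimum through *Foxo1d/d* alone, and *Trpv5*, *Trpm1* and *Scn11a* through *Foxo1f/f* alone, so these 5 had to differ. With the minimum required in each genotype, a choice made after seeing the data, 8 of 117 members were higher, where 4.78% of 15460 genes were, and 12 lower, where 3.09% were. At 2-fold, 2 of 122 members (1.64%) were higher, where 2.01% of all genes were, and 8 (6.56%) lower, where 1.40% were. With a minimum of 50 counts, 4 of 94 (4.26%) were higher, where 3.81% of 13856 genes were, and 9 (9.57%) lower, where 2.58% were. The share of higher members was thus near that of all genes under both. Just inside the threshold stood *Kcnj3* (0.59) and *Scn11a* (-0.59), and just outside it *Kcnk4* (0.58) and *Scn7a* (-0.55). The plot of ratios against count places the members among all genes.

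**Figure D1:**
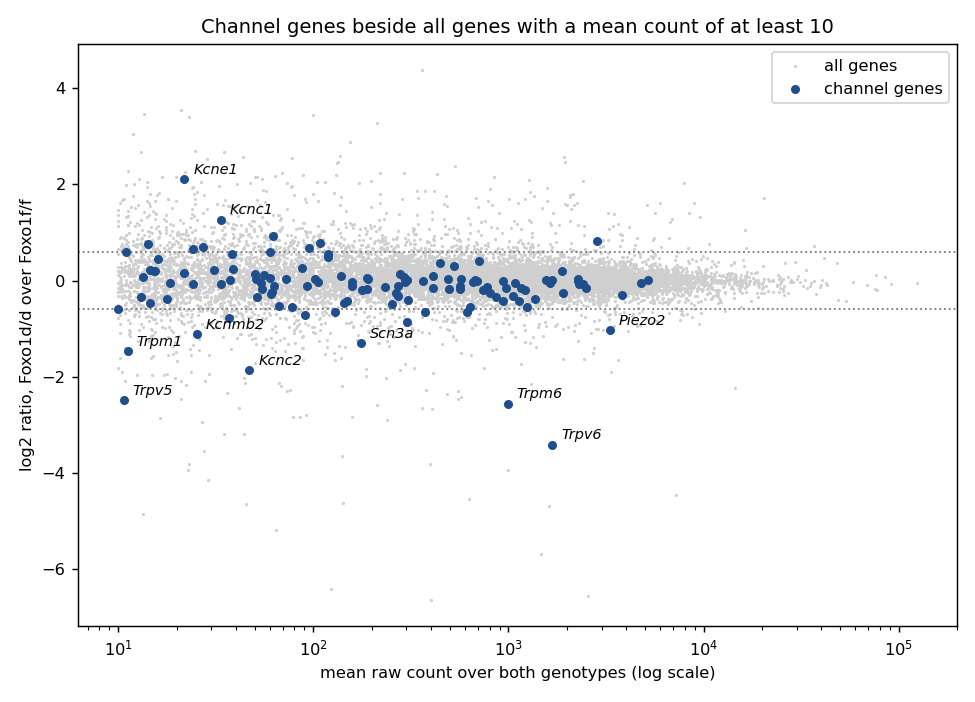
Each grey point is a gene that reached the minimum of 10, and each blue point 1 of the 122 channel genes; the x axis is the mean raw count over both genotypes (log scale) and the y axis the log2 ratio, knockout divided by control. Dotted lines mark 1.5-fold, and *Trpv6* (-3.41) and *Trpm6* (-2.56) stand lowest among the channel genes with high counts.

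The lowest ratios of all members that reached the minimum were those of *Trpv6*, *Trpm6* and *Trpv5*. *Trpv6*, the apical calcium entry channel of gut, placenta and uterus (chr6:41620619-41636405, GRCm38), averaged 3048 counts in *Foxo1f/f* uteri and 298 in *Foxo1d/d* uteri. It was 10.7-fold lower (-3.41, interval -3.51 to -3.32), and ranked 19 from the lowest of the 15702 genes. *Trpm6*, a magnesium channel joined to a kinase and known from kidney and gut (chr19:18730177-18892521), had 1685 and 298, which is 5.91-fold lower (-2.56, interval -2.67 to -2.46). *Trpv5*, the renal calcium channel next to *Trpv6* (chr6:41651661-41681224), had only 18.7 and 2.67 (-2.48, interval -3.91 to -1.82) and reached the minimum through controls alone. The *Trpv5* and *Trpv6* genes are 15255 bases apart and similar in sequence, so reads may have been split between them and the *Trpv5* value is uncertain. *Trpm7*, the widely expressed relative of *Trpm6*, had 4743 and 4797 (-0.04). Per kilobase of exon, the level of *Trpm7* was 1.92 times that of *Trpm6* in controls and 11 times in knockouts.

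The promoters of the 3 lowest members are shown because their ratios lie furthest from 0. They are RefSeq windows of 300 bases around an annotated start (GRCm38.p6), each printed 5′ to 3′ on the strand of the gene, with the 5 letters AAACA or their reverse complement TGTTT in capitals. These are the last 5 letters of the forkhead motif GTAAACA. The windows are Trpv6 at chr6:41636356-41636655 on the minus strand, Trpv5 at chr6:41680674-41680973 on the minus strand and Trpm6 at chr19:18749480-18749779 on the plus strand, and those of *Trpv5* and *Trpm6* lie at a start inside the annotated gene span.
Trpv6: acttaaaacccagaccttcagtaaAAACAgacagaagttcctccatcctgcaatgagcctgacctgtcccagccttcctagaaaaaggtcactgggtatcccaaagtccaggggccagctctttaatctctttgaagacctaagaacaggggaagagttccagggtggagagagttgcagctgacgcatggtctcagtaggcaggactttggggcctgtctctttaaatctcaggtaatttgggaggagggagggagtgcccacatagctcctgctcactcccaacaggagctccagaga
Trpv5: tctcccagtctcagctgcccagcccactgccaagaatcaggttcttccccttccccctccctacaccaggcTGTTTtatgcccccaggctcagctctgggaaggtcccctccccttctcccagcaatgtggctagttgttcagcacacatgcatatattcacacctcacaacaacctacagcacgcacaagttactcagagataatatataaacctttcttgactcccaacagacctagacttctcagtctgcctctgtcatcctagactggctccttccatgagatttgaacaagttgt
Trpm6: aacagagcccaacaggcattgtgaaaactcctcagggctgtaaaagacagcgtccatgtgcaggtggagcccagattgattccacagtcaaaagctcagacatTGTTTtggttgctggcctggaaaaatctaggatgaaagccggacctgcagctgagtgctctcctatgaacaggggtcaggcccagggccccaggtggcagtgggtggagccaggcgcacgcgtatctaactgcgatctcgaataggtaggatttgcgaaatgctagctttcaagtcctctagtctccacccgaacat
AAACA occurred 1 time in each of the 3, in 73 of the 164 windows that belong to 124 of the members (44.5%), and in 50.5% of all 32851 windows, on either strand. The longer GTAAACA (reverse complement TGTTTAC) was in none of the 3 windows, in 0 of the members' 164 windows, and in 3.65% of all windows. GTAAATA (reverse complement TATTTAC) was in 1 of the 164, that of *Scn2b*, and in 3.04% of all windows. The steroid receptor half-site AGAACA (reverse complement TGTTCT) was in the *Trpv6* window and in 15.9% of the members' windows, against 19.0% of all. It was chosen after the *Trpv6* sequence had been read. These matches describe the letters of the windows only.

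Some genes that handle calcium after it has entered the cell differed, in both directions. The list of calcium pumps and buffers, chosen with earlier results of these data known, had 11 genes, of which 10 reached the minimum. Past 1.5-fold, 2 were higher, where 5.45% of all genes were, and 1 lower, where 3.51% were. *Calb1*, the cytosolic calcium buffer calbindin-D28k, had 898 and 3948 (2.07), and *Atp2b2*, a plasma membrane calcium pump, had 636 and 2531 (1.93). *Calb2*, the buffer calretinin, had 71.7 and 11 (-2.66). *S100g*, calbindin-D9k, a buffer paired with TRPV6 in intestine, had 5438 and 3793 (-0.58), just outside the threshold but past it when ratios were centred on their median (-0.60), and the pump gene *Atp2b1* 7039 and 6914 (-0.09). Per kilobase of exon, the level of *Calb1* was 0.239 times that of *Trpv6* in controls and 10.8 times in knockouts. The calcium entry channel and this buffer thus exchanged their order. *S100g* did not, and its level was 14.6 times that of *Trpv6* in controls and 104 times in knockouts.

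**Figure D2:**
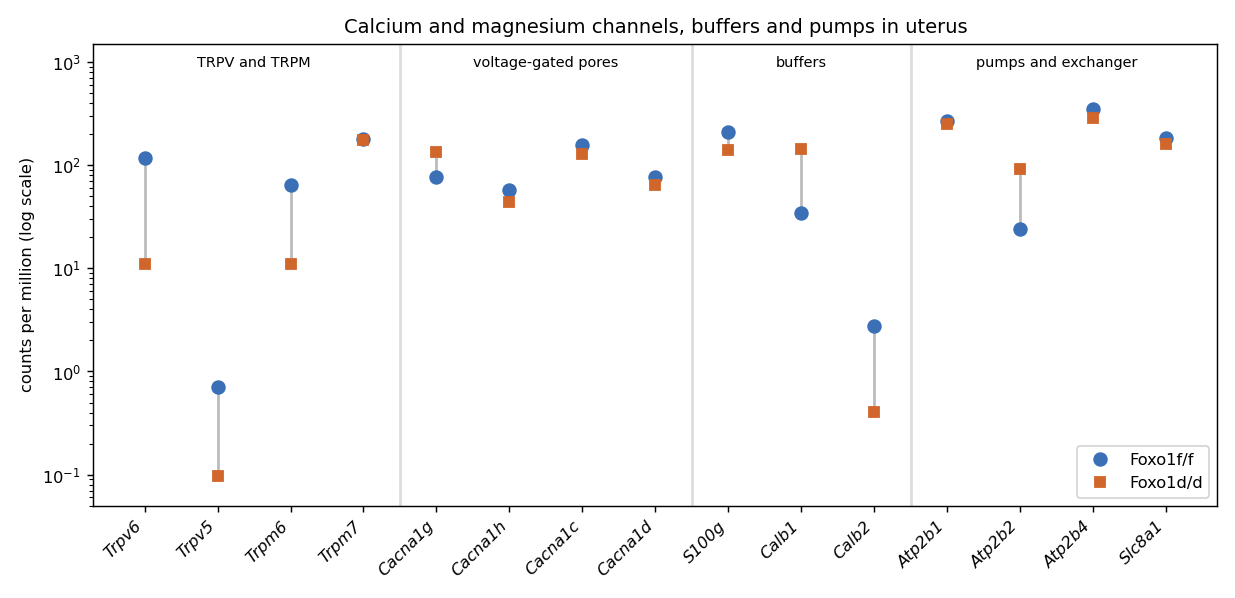
Points give the CPM (log scale) of each gene in controls (circles) and knockouts (squares), from the authors' mean counts, with no error bars because no single libraries were used; levels are not divided by length. *Trpv6*, *Trpv5*, *Trpm6* and *Calb2* are lower in *Foxo1d/d*, and *Calb1*, *Atp2b2* and *Cacna1g* are higher.

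The remaining TRP channels differed less. *Trpm1*, best known from retina and pigment cells, had 16.7 and 5.67 (-1.47, interval -2.40 to -0.83). *Trpm2*, opened by ADP-ribose and prominent in myeloid cells, was higher in *Foxo1d/d*, with 77.3 and 139 (0.78, interval 0.55 to 1.02). *Trpm4*, a sodium-conducting channel opened by calcium, had 1150 and 962 (-0.32). *Trpv4*, the osmosensitive channel, had 461 and 592 (0.30), and *Trpv2* 654 and 669 (-0.03). Of the 7 TRPC genes, 5 reached the minimum and none passed 1.5-fold, with *Trpc1* lowest (-0.31) and *Trpc4* at -0.002; *Trpc6* (0.002) changes sign with the scaling. *Trpc2* had the highest TRPC level, 17.0 CPM per kilobase in *Foxo1f/f*, but shares 100% of its exon bases with other annotated genes on the same strand, so its counts are uncertain. *Trpc5* stayed under the minimum and was picked after its values were seen, so its difference cannot be read as support for a change. It had no count in *Foxo1f/f* and 7 summed counts in *Foxo1d/d*, which a single library could hold. With the floor of 3 counts over the group it was at least 2.24-fold higher. That bound leaves out counting error, and the interval reaches down to a log2 ratio of 0.80.

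The mechanical channels parted. *Piezo2*, the touch and stretch channel of sensory endings, had 4380 counts in controls and 2227 in knockouts, 2.05-fold lower (-1.04, interval -1.08 to -0.99). *Piezo1*, its relative in vessels and epithelia, had 5051 and 5323 (0.01, interval -0.02 to 0.05), and its sign depends on the scaling; 24.6% of its exon bases are shared with a gene on the other strand. All 7 P2X genes, the ATP-gated channels, lay within 1.5-fold, with *P2rx2* lowest (-0.49) and *P2rx1* highest (0.50). *P2rx7*, the pore that immune cells open on high ATP, led them per length with 16.5 and 14.8 CPM per kilobase. *P2rx4* (0.01) changes sign with the scaling. Of the 4 HCN pacemaker genes, *Hcn2* and *Hcn3* reached the minimum, with ratios of -0.08 and -0.52.

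Ratios of sodium channel genes lay below 0. All 7 alpha subunits that reached the minimum had a ratio below 0, as did 7048 of all 15702 genes, and their median was -0.55. Past 1.5-fold were 3, where 3.51% of all genes were lower. *Scn11a* (12 and 8, interval -1.38 to 0.09), 1 of the 3, reached the minimum through controls alone. With the minimum required in each genotype, chosen after seeing the data, 2 of 6 passed, where 3.09% of all genes were lower. The median was then -0.36. *Scn3a*, an alpha subunit of developing neurons and endocrine cells, had 248 and 104 (-1.30, interval -1.50 to -1.12). *Scn1a* had 156 and 102 (-0.66), and *Scn7a*, which encodes the sodium-sensing channel Nax, had 1448 and 1029 (-0.55). The 4 beta subunits, which set gating and membrane placement, also had ratios below 0, led by *Scn4b* with 382 and 218 (-0.87), while *Scn3b* had 185 and 169 (-0.19). *Scn2a*, listed among genes of uterine interest, was not found under that symbol and is not analysed here. Nerve and glia markers were low, summing to 20.2 and 18.1 CPM, with *Uchl1* the most abundant per length. Of the 8, 5 reached the minimum, all with a ratio below 0, 2 of them past 1.5-fold, of which *Sox10* (12.7 and 7.67) reached the minimum through controls alone. The 3 under the minimum had ratios above 0, with *Elavl4* at 0.94, *Tubb3* at 0.29 and *Snap25* at 0.13, and no marker of the list was at 0. Their part in the sodium channel values was not tested.

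Among voltage-gated calcium channels, 1 of the 7 pore genes at the minimum was higher past the threshold, where 5.45% of all genes were. *Cacna1g*, a T-type pore that opens near rest (chr11:94408391-94474400), had 2000 counts in controls and 3670 in knockouts, 1.76-fold higher (0.81, interval 0.77 to 0.86). *Cacna1h*, another T-type pore, had 1520 and 1209 (-0.39). *Cacna1c*, the L-type pore of smooth muscle, had 4150 and 3515 (-0.30), and *Cacna1d* 2017 and 1769 (-0.25). Besides *Cacna1g*, none of the 7 pore genes that reached the minimum passed 1.5-fold. Of the accessory subunits, *Cacna2d3* had 41.7 and 83.0 (0.92), whereas the more abundant *Cacna2d1* had 2405 and 2395 (-0.07). All 4 beta subunits had ratios below 0, from -0.35 in *Cacnb2* to -0.01 in *Cacnb3*. No gamma subunit passed 1.5-fold, and *Cacng7* led them per length with 9.19 and 8.13 CPM per kilobase.

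Voltage-gated potassium channel genes showed no common direction. Of 40 voltage-gated alpha subunits, 30 reached the minimum, with a median ratio of 0.01. Past 1.5-fold, 4 were higher, where 5.45% of all genes were, and 1 lower, where 3.51% were. *Kcnc2*, a subunit of fast-spiking neurons, had 73.3 and 20.3 (-1.86), while its close relative *Kcnc1* had 18.7 and 48.3 (1.27). *Kcna3*, the channel of T lymphocytes, had 20 and 34.3 (0.69). *Kcng2* (0.75) and *Kcnf1* (0.66) encode subunits that form channels only with others and were the remaining higher ones. A subunit known from heart and smooth muscle stayed closer, with *Kcnh2* at 1637 and 1644 (-0.06). The vascular and myometrial *Kcnq5* had 282 and 246 (-0.26), *Kcna5* 52.3 and 59 (0.11), and *Kcnh1* 77.7 and 97 (0.26). None of these passed the threshold, and *Kcnd3*, a pore of transient currents (0.01), changes sign with the scaling. *Kcnq1*, which pairs with KCNE subunits in epithelia, had 291 and 298 (-0.03). The RNA gene *Kcnq1ot1* on its other strand had 921 and 952 (-0.01), and the strand setting of the counting is not given in the sources used here.

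Among the accessory subunits, *Kcne1*, which slows KCNQ1 currents, had 7.33 and 36.3 (2.10, interval 1.59 to 2.90), the highest ratio of the members that reached the minimum, which it did through knockouts alone. *Kcne3*, which holds KCNQ1 open in secretory epithelia, had 94.7 and 144 (0.54), and *Kcne4* 2187 and 2333 (0.03). *Kcnmb2*, a beta subunit of the large-conductance BK channel, had 34.3 and 16 (-1.12). The smooth muscle form *Kcnmb1* had 860 and 751 (-0.26). *Kcne2*, an accessory of gastric and other epithelia, stayed under the minimum with 6.67 and 5.

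The 8 *Kcnma*, *Kcnn*, *Kcnt* and *Kcnu* potassium channel genes, most of which encode channels opened by calcium or sodium, had a median of -0.46. Of these, 3 were lower past 1.5-fold, where 3.51% of all genes were, and 1 higher, where 5.45% were. The other 4 lay within it. *Kcnma1*, the BK pore that quiets uterine muscle, had 736 and 490 (-0.65, interval -0.74 to -0.55). The sodium-activated *Kcnt2* had 450 and 299 (-0.65) and *Kcnt1* 46.0 and 27.7 (-0.77). *Kcnn3*, the SK3 channel of myometrium and endothelium, had 1057 and 815 (-0.44), and *Kcnn2* 56.3 and 46 (-0.35). *Kcnu1*, whose channel is opened by alkaline pH, had 165 and 123 (-0.48). The higher gene was *Kcnn4*, the intermediate-conductance channel of blood cells and secretory epithelia, with 70.7 and 119 (0.68, interval 0.44 to 0.93). Smooth muscle markers had a ratio below 0 in 8 of 8 genes, from -0.43 in *Myh11* to -0.15 in *Acta2*, and so had all 5 endothelial markers, none past 1.5-fold, summing to 1127 and 969 CPM, with *Cdh5* the most abundant per length. The part of these markers in the channel values was not tested.

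Per kilobase of exon, an inward rectifier and a background potassium channel were among the 4 members with the highest levels in controls. By the longest transcript instead, the order in controls was *Trpv6* (39.9), *Kcnj8* (34.6), *Kcne4* (31.5), *Cacnb3* (31.3) and *Kcnk1* (29.5). Levels below use all exon bases. *Kcnj8*, the pore of vascular and smooth muscle ATP-sensitive channels, stood first of all members in *Foxo1f/f* by this length only. It had 34.6 CPM per kilobase of exon there and 33.0 in *Foxo1d/d*. Its sulfonylurea receptor partner *Abcc9* had mean counts of 3964 and 3834 (-0.11). The background channel *Kcnk1* had 29.5 and 33.6 CPM per kilobase, the first place in *Foxo1d/d*. *Trpv6* stood at place 3 in controls, with 29.6 CPM per kilobase, and at place 41 in knockouts, with 2.78. *Kcnk5*, an acid-sensitive channel of transporting epithelia, had mean counts of 597 and 820 (0.40), and *Kcnk2*, the stretch-sensitive TREK-1, had 111 and 70.0 (-0.71). *Kcnj15*, an epithelial rectifier, had 30 and 46.3 (0.55). *Kcnk3*, an acid-sensitive channel of vascular muscle, had 196 and 180 (-0.19). Other rectifier genes of epithelium and muscle, *Kcnj11*, *Kcnj13* and *Kcnj16*, stayed under the minimum of 10, with mean counts of at most 9.

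**Figure D3:**
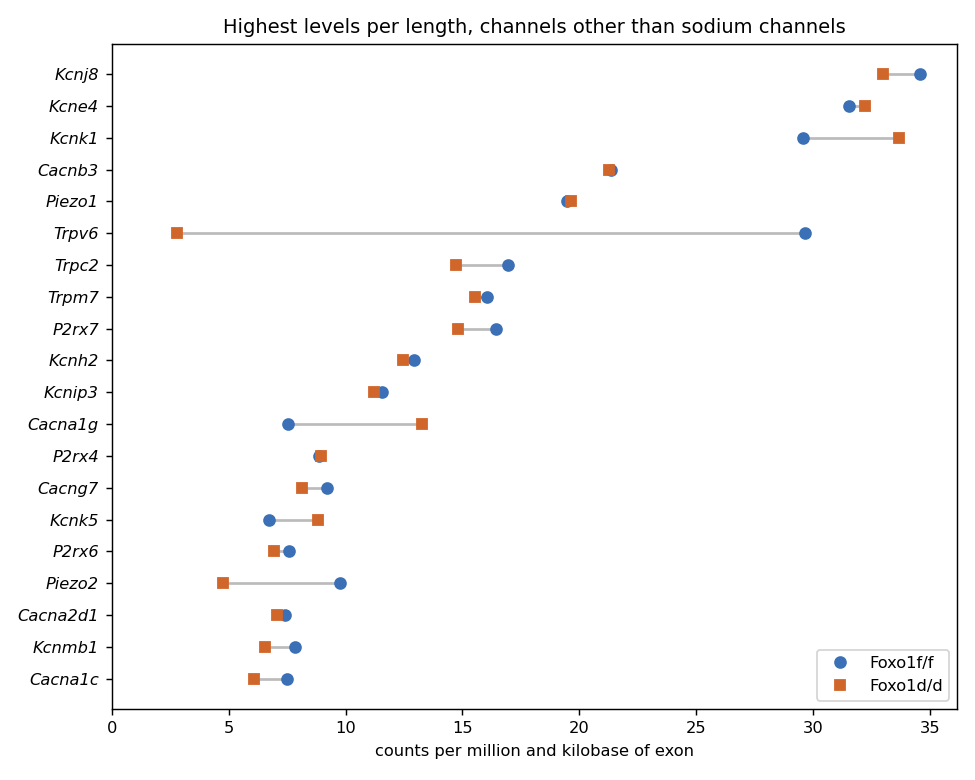
The 20 genes with the highest mean level of both genotypes among the channels other than sodium channels are shown by CPM per kilobase of exon in controls (circles) and knockouts (squares). Most pairs lie close together, whereas *Trpv6* moves from 29.6 to 2.78, *Piezo2* from 9.77 to 4.76 and *Cacna1g* from 7.55 to 13.3.

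**Figure D4:**
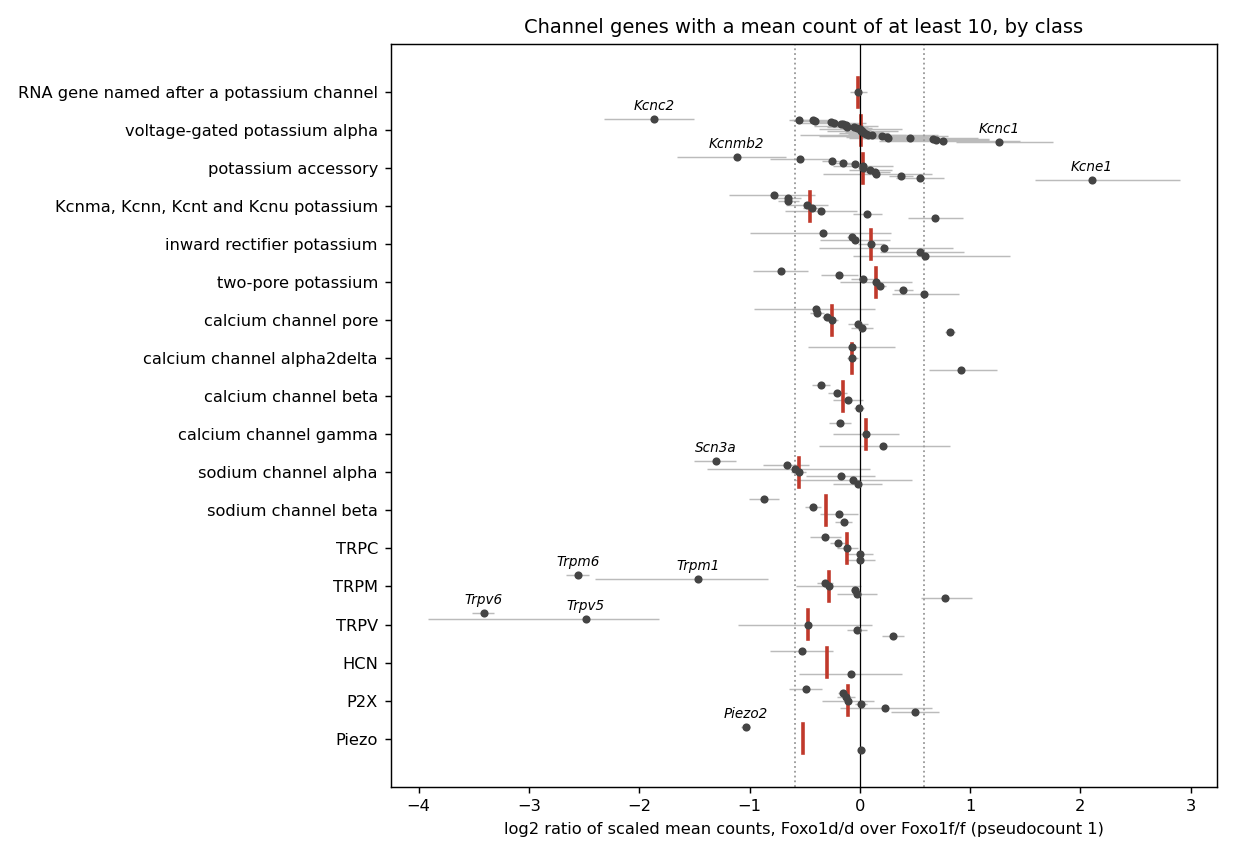
Each point is 1 of the 122 channel genes that reached the minimum, placed by its log2 ratio (knockout divided by control) with the 95% counting interval; red bars are class medians and dotted lines mark 1.5-fold. Sodium channel alpha genes lie below 0, and voltage-gated potassium genes lie on both sides.

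Genes that work with these channels were read from 4 lists of 44 genes. The lists were chosen with earlier results of these data known, so the shares below cannot show an excess among partner genes. Of the 44, 40 reached the minimum. Of these, 6 (15%) were higher past 1.5-fold, where 5.45% of all genes were, and 4 (10%) lower, where 3.51% were. *Unc80* and *Scnn1g* among the 4 reached 10 counts in controls alone, and with the minimum required in each genotype, chosen after seeing the data, 6 of 38 (15.8%) were higher, where 4.78% of all genes were, and 2 (5.26%) lower, where 3.09% were. Among 18 store-operated and intracellular calcium channels, *Mcoln2*, a lysosomal channel, was higher with 91.7 and 169 (0.81), and *Ryr2*, a calcium release channel, lower with 408 and 227 (-0.90). The store-operated pore gene *Orai1* had 415 and 458 (0.08), and its sensor *Stim1* 1937 and 1726 (-0.23). Among 9 partner subunits, 1 was higher and 1 lower. *Unc80*, which holds the sodium leak channel NALCN at the membrane, had 80.3 and 8.33 (-3.18, interval -3.92 to -2.74), whereas *Nalcn* itself had 183 and 191 (-0.002). *Lrrc26*, a BK gamma subunit of secretory epithelia, had 12.7 and 34.3 (1.31). Among 6 other apical or mechanical channels, 2 were higher and 1 lower. The chloride channel *Cftr* had 38 and 97 (1.27), and the epithelial sodium channel subunits *Scnn1b* and *Scnn1g* had 183 and 316 (0.72) and 20.7 and 9.33 (-1.13). *Scnn1a* had 207 and 271 (0.33). *Scnn1a* and *Scnn1b*, which reached the minimum in each genotype, both had ratios above 0, and *Scnn1g* reached it through controls alone.

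Markers of other cells are shown in the plot of markers. Epithelial markers had a ratio above 0 in 7 of 8 genes, with *Krt19* highest (1.22) and the only one past 1.5-fold, and *Krt18* lowest (-0.03). Their part in the channel values was not tested. All 6 immune markers had a ratio above 0 and summed to 292 and 356 CPM, with *Cd68* the most abundant per length. Past 1.5-fold was 1 of them, *Cd3e* of T lymphocytes, with 52.0 and 116 (1.09). *Kcna3*, *Kcnn4* and *Trpm2* were higher beside them. *P2rx7*, described above as a pore of immune cells, was lower within 1.5-fold, with 2566 and 2409 (-0.15). The part of immune cells was not tested. All 4 adipocyte markers were higher, from 1.70 to 2.19, but summed to only 4.24 and 17.1 CPM, with *Adipoq* the most abundant per length. Of these, *Lep* reached 10 counts in knockouts alone. The 4 stratified epithelium markers summed to 6.04 and 21.5 CPM, with *Krt5* most abundant per length and 3 higher past 1.5-fold. Skeletal muscle markers summed to 97.3 and 95.4 CPM, nearly all from *Acta1*, with *Myh4* at 0. Of the 3 that reached the minimum, 1 was lower past 1.5-fold, *Ckm* with 67.3 and 43.7 (-0.67). The part of these cells in the channel values was not tested. Stromal markers had a ratio below 0 in 6 of 8 genes, none past 1.5-fold, with a median of -0.08.

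**Figure D5:**
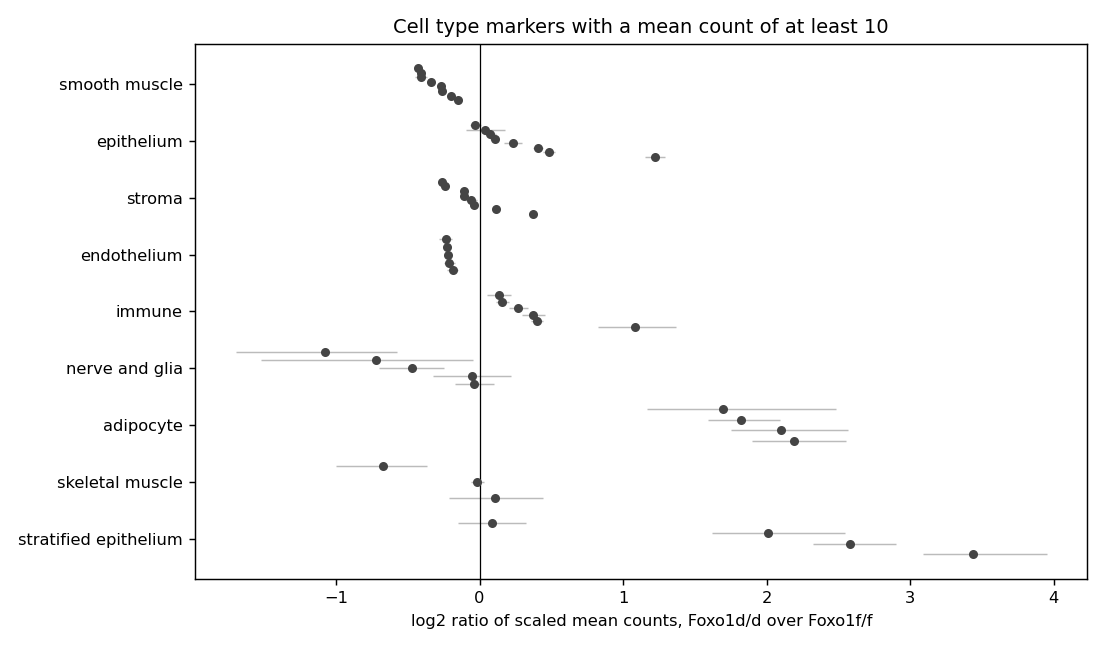
Each point is a cell type marker that reached the minimum, placed by its log2 ratio (knockout divided by control) with the 95% counting interval, and grouped by list. Smooth muscle and endothelial markers lie below 0, immune and adipocyte markers above 0, and *Krt15* reaches 3.44.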

How the data were processed

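Whole uteri were profiled by poly(A)-selected, paired-end RNA-seq. The study's methods describe trimming, mapping with STAR on RefSeq genes, removal of duplicate reads with picard and counting with HTSeq; removing duplicates can lower the counts of abundant genes most. The methods name the mm10 build and the submitters' processing notes mm9, and versions are not given in the sources used here. The deposited table holds, for every gene, a mean of raw counts over the libraries of a genotype. All 46840 mean counts were whole numbers, within 1e-06, after multiplication by the 3 libraries. The table also holds the authors' fold change, log2 CPM, p-value and FDR of their edgeR comparison, which were not used.

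Ratios and intervals were computed with Python 3.11.15, numpy 2.4.6, pandas 2.3.3 and scipy 1.17.1, drawn with matplotlib 3.10.9, and tested on simulated counts. Exon lengths, all 167 found, came from GENCODE on GRCm38, and positions and promoters from RefSeq on GRCm38.p6. The labels do not state strand.

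Named genes were the 10 highest and 10 lowest ratios past 1.5-fold with an interval that excludes no difference (9 and 10 are named, since 9 were higher), the highest level per kilobase in a class, a list of channels known from uterus, muscle or epithelium, *Foxo1*, *Pgr*, and the lists of partner genes and markers; some genes this rule names are not reported here. The members and lists were chosen with earlier results of these data known. *Trpc5* and the comparisons of levels between *Trpv6*, *Calb1*, *S100g*, *Trpm6* and *Trpm7* were chosen after seeing the values, as were the 4 motifs searched. Alternatives changed the pseudocount, the scaling, the fold, the minimum count and the gene length.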

Additional observations from a re-analysis of the deposited data

How the results depend on the processing

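With a fold threshold of 2, 2 channel genes were higher (1.64%, where 2.01% of all genes were) and 8 lower (6.56%, where 1.40% were). With a minimum of 50 counts, 4 were higher (4.26%, where 3.81% were) and 9 lower (9.57%, where 2.58% were). Fewer genes qualify by construction in both. Other pseudocounts, scalings and a minimum of 1 gave 9 to 15 higher (7.38% to 10.3%, where 5.11% to 7.49% were) and 15 to 17 lower (11.6% to 12.3%, where 3.53% to 5.12% were), and requiring a counting interval that excludes no difference gave 9 and 14 (7.38% and 11.5%, where 5.42% and 3.46% were). With the minimum of 10 counts required in each genotype, chosen after seeing the data, 8 were higher (6.84%, where 4.78% were) and 12 lower (10.3%, where 3.09% were). With a minimum of 50 counts, 3 class medians differed, since fewer genes entered: calcium channel pores -0.13, alpha2delta subunits 0.42 and TRPV -0.027. With the minimum of 10 in each genotype the TRPV median was -0.247. The other 68 values of class medians were labelled as unchanged, though no counting interval of a class median is given here. Among them, the sodium channel alpha median went from -0.55 to -0.36 with this minimum, which leaves out *Scn11a* (12 and 8). Partner genes were looked at by alternatives added after seeing the data. With 10 counts required in each genotype, 6 of 38 were higher and 2 lower, where 4.78% and 3.09% of all genes were. With centring on the median, 6 of 40 were higher and 6 lower, where 5.11% and 3.77% of all genes were. Scaling by the 75th percentile also gave 6 and 6, where 5.12% and 3.74% were. Under both scalings *S100g* and *Ryr3* pass the threshold. By the longest transcript, 18 of the 20 highest levels per kilobase remained among the 20, and *Trpv6* instead of *Kcnj8* stood first in controls. Of 856 values of single genes, members and lists together, 833 stayed within their counting interval and the other 23 were abundant smooth muscle and stromal markers. No called gene changed direction under the 4 alternatives of pseudocount and scaling, and 7 uncalled members change sign with the scaling, among them *Piezo1*, *P2rx4* and *Trpc6*.

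No paired analysis was possible because the columns are means per genotype and carry no replicate numbers. Leaving out single libraries was not possible for the same reason, and the spread between animals was not measured here. Ratios of genes near a mean count of 10, such as *Trpv5*, are limited by depth.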
